A study of Arabidopsis thaliana with 6 samples.

Results

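UDP-glucuronate 4-epimerases convert UDP-glucuronic acid into UDP-galacturonic acid, the activated sugar from which the backbone of pectin is built. Arabidopsis encodes the enzyme in the genes GAE1 to GAE6, and all 6 were described here out of 27444 nuclear protein-coding genes. The genes were chosen by family name, and the family was selected on the peak positions and scores of these same lists, so its counts and scores are a description and carry no test. A peak was given to a gene when it overlapped the gene body or the 1000 bp on either side.

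In pectin synthesis UDP-glucuronic acid comes from UDP-glucose dehydrogenases or from myo-inositol, and the epimerases act on it in the Golgi, where galacturonosyltransferases then use the product. GAE1 and GAE6 are known from mutants with less pectin and weaker resistance to Botrytis and Pseudomonas. Decarboxylases compete for the same substrate and make UDP-xylose.

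The series mapped the chromatin protein EBS (EARLY BOLTING IN SHORT DAYS) by chromatin immunoprecipitation and sequencing (ChIP-seq). EBS delays flowering and binds methylated tails of histone H3. The 6 samples were 3 anti-FLAG ChIP samples (replicates 1, 2 and 3) and 3 input DNA samples without antibody, all from whole Col-0 seedlings grown for about 10 days in 16 h light and 8 h dark. All of these plants were ebs shl mutants, SHL being a close relative of EBS, and all carried FLAG-tagged EBS under the native EBS promoter. Neither the ebs and shl alleles nor the number of transgenic lines is given in the sources used here. The samples included no ChIP of untagged plants, the inputs had no values of their own in this comparison, and the labels do not state whether the replicates were grown separately, so the spread between lists may be technical.

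Each ChIP replicate had its own deposited peak list, with 5237, 4216 and 3661 nuclear peaks in replicates 1, 2 and 3. The lists give a position and a score for each peak but no read counts, so the depth behind them is unknown. The score is that of the authors' peak caller, in whose output it is 10 times the negative log10 of the p-value, and it ranks peaks only within a list. The median score was 33.44, 42.685 and 102.09 in replicates 1, 2 and 3, and 77, 91 and 39 peaks were tied at 3100, with 11, 6 and 7 peaks above it and highest scores of 3208.53, 3228.29 and 3215.28. The lowest scores were 20, 20 and 20.01, so peaks with scores just above 20 stood at the floor of their list. A score percentile below is the percentage of nuclear peaks of the same list with a lower score, where ties take the middle of their ranks and scores above 3100 are set to 3100.

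Of the 6 GAE genes, 5 had a peak in replicate 1, where 20.8% of all protein-coding genes had one. In replicate 2 there were 4, against 17.1% of all genes, and in replicate 3 there were 4, against 11.7%. The same 4 genes, GAE1, GAE2, GAE3 and GAE6, had a peak in each list, as 6.09% of all protein-coding genes did. Their peaks overlapped and were merged into a region of all 3 lists, and such regions touched 6.68% of all protein-coding genes or their flanks, including genes near only some of a region's peaks. GAE4 had a peak in replicate 1 alone, as 19.7% of all genes had a peak in exactly 1 list, and GAE5 had none, like 68.3% of all genes. Because the genes were chosen with these counts known, nothing is read from the comparison with the shares over all genes.

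Each of the 13 peaks at GAE genes overlapped the gene body, and none lay in a flank alone. Most protein-coding genes with a peak also had one on the body. These were 3911 of 5712 genes in replicate 1, 3353 of 4705 in replicate 2 and 2020 of 3221 in replicate 3. At least 59.4% of the length of each of the 13 GAE peaks was on the body, and 5 of them lay wholly inside it. A peak of each list on the body itself was found at the same 4 genes and at 3.75% of all protein-coding genes. Peak widths ranged from 777 to 3064 bp, and each of the 13 was wider than the median of its list (699, 880.5 and 652 bp in replicates 1, 2 and 3). The annotated bodies are 1819 to 2599 bp long. The gene table used here gives no strand or exons, so which end of a body is the start of transcription, and whether peaks lay on exons or UTRs, was not analysed here.

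**Figure D1:**
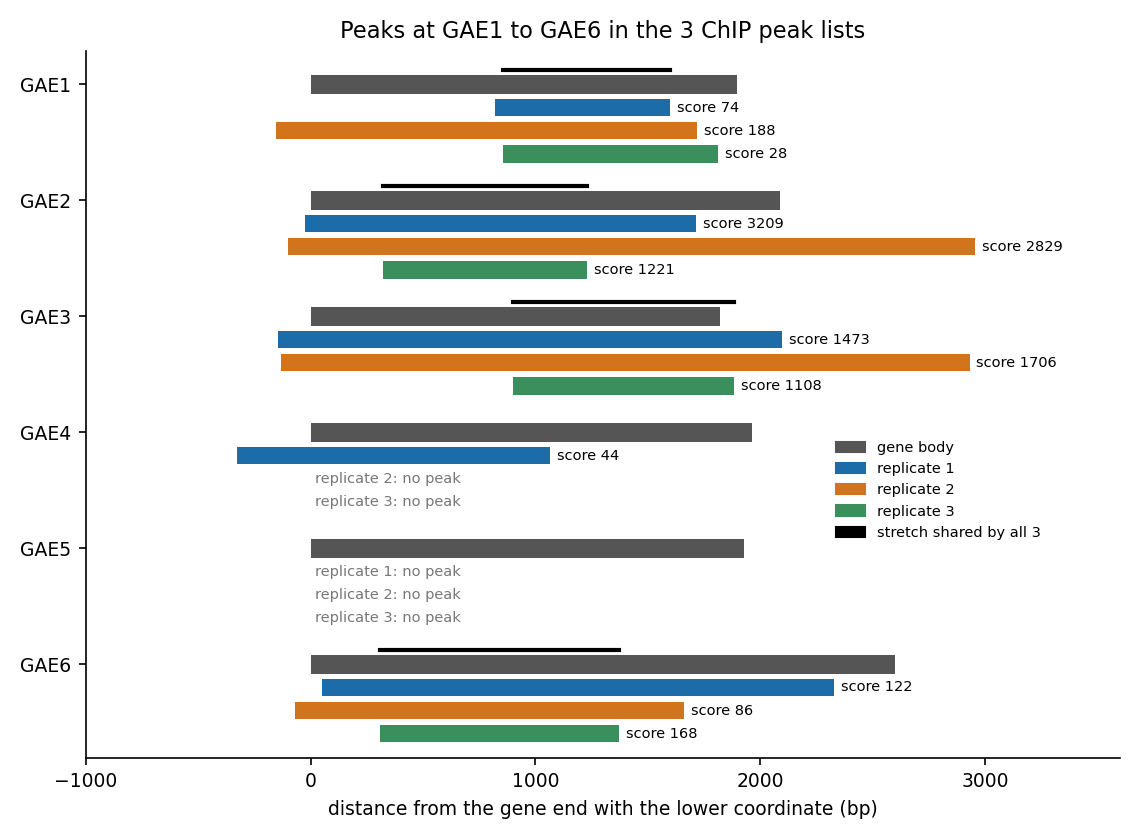
Peaks at GAE1 to GAE6, drawn to scale as distance in bp from the end of each gene body with the lower coordinate. Grey bars are gene bodies, coloured bars are peaks of replicates 1, 2 and 3 with their scores, and the black line is the stretch shared by all 3 lists. The 4 shared stretches are 741 to 1062 bp long, GAE4 has a single peak and GAE5 none.

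GAE2 (AT1G02000) carried the highest score of the family in every list. The peaks lay on chromosome 1 (TAIR10) from 345490 to 347230 with a score of 3208.53 in replicate 1, from 345415 to 348470 with 2829.45 in replicate 2, and from 345837 to 346745 with 1220.94 in replicate 3. These scores stood at percentiles 99.2, 97.3 and 92.7 of their lists, a mean of 96.4 ± 3.3 (SD, n = 3). The replicate 1 score was the highest value in that list. With scores above 3100 set to 3100, 87 other peaks of the list tied with it, 77 of them listed at exactly 3100. In replicates 2 and 3, 113 and 265 other peaks had a score at least as high as that of GAE2. Among the 1671 protein-coding genes with a peak of each list on the gene or within 1000 bp, 180 (10.8%) had a higher mean percentile than GAE2.

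The 3 GAE2 peaks differed in extent more than in place. They covered 82.1% of the 2088 bp body in replicate 1, 100% in replicate 2 and 43.5% in replicate 3. The replicate 3 peak lay wholly inside both others, so the stretch shared by all 3 lists was that peak itself, 909 bp between 15.4% and 58.9% of the body counted from the lower coordinate. The replicate 2 peak alone ran past the gene, by 867 bp at the higher end. It covered 858 bp (17.4%) of the neighbouring gene SEC1A, which encodes a protein of membrane traffic and begins 9 bp from GAE2. In replicates 1 and 3 the GAE2 peak ended 382 and 867 bp before SEC1A, and SEC1A had no peak on its body in those lists.

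GAE3 (AT4G00110) came next in each list. Its peaks lay on chromosome 4 from 38336 to 40578 with a score of 1472.59 in replicate 1, from 38348 to 41411 with 1706.25 in replicate 2, and from 39379 to 40363 with 1107.56 in replicate 3. The percentiles were 94.7, 94.0 and 91.7, with a mean of 93.5 ± 1.6 (SD, n = 3), and 324 of the 1671 genes (19.4%) had a higher mean. GAE2 and GAE3 were the GAE genes with a score of at least 1000 in all 3 lists, which 0.802% of protein-coding genes reached with peaks on the body. They were also the GAE genes whose body peaks scored at least 100 in each list, as at 2.09% of protein-coding genes.

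The body of GAE3 is 1819 bp long and was covered from end to end in replicates 1 and 2, against 50.6% in replicate 3. The shared stretch was the replicate 3 peak, 985 bp starting at 49.4% of the body and ending 65 bp beyond its higher end. At the lower end, the peaks of replicates 1 and 2 reached 49 and 37 bp into RPS13A, which encodes a protein of the small ribosomal subunit and lies 95 bp from GAE3. At the higher end the replicate 2 peak covered the whole of the pseudogene AT4G00114 (522 bp) and stopped 253 bp before IND, a regulator of fruit opening. The replicate 3 peak touched none of these neighbours, with 994 bp to RPS13A and 498 bp to AT4G00114.

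GAE6 (AT3G23820), the longest gene of the family with 2599 bp, had peaks of middle rank. They lay on chromosome 3 from 8603263 to 8605541 with a score of 122.37 in replicate 1, from 8603144 to 8604873 with 85.85 in replicate 2, and from 8603522 to 8604583 with 168.12 in replicate 3. The percentiles of 75.0, 65.7 and 58.5 had a mean of 66.4 ± 8.2 (SD, n = 3). Of the 1671 genes with a peak of each list, 1057 (63.3%) had a higher mean percentile. The peaks covered 87.7%, 63.9% and 40.9% of the body, and the replicate 3 peak again lay inside both others. The shared 1062 bp ran from 11.9% to 52.8% of the body. No other annotated gene was touched by the region, and the nearest neighbours, GRP4 and the non-coding RNA gene AT3G04595, had no peak on their bodies in any list.

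GAE1 (AT4G30440) had the lowest mean percentile of the 4 genes with a peak in each list and the widest spread. The peaks lay on chromosome 4 from 14882510 to 14883286 with a score of 74.35 in replicate 1, from 14881535 to 14883407 with 188.42 in replicate 2, and from 14882546 to 14883501 with 28.45 in replicate 3. The percentiles were 69.2, 75.4 and 20.2, with a mean of 54.9 ± 30.3 (SD, n = 3), and the replicate 3 peak stood in the lowest quartile of its list. Of the 1671 genes with a peak of each list, 1318 (78.9%) had a higher mean percentile. The share of the 1895 bp body under the peak was 41.0%, 90.7% and 50.4%. The shared stretch measured 741 bp, from 45.2% to 84.3% of the body. Here the replicate 1 peak was the narrowest, and the replicate 3 peak reached 94 bp past the replicate 2 peak at the higher end. No other gene is annotated within 1000 bp of GAE1.

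GAE4 (AT2G45310) had 1 peak, in replicate 1, on chromosome 2 from 18681752 to 18683144 with a score of 44.22 (percentile 59.6). It covered 54.2% of the 1962 bp body. The same peak covered 1056 bp of the non-coding RNA gene AT2G45315, which overlaps GAE4, and 138 bp of AT2G45300, so a peak list cannot assign it to 1 of these genes. The nearest peaks to GAE4 in replicates 2 and 3 were 21079 and 34169 bp away. A second replicate 1 peak lay just outside the window, 1392 bp from the body, with a score of 31.42.

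GAE5 (AT4G12250) had no peak on its 1929 bp body or within 1000 bp in any list. The nearest peaks were 8269, 8244 and 9092 bp from the body in replicates 1, 2 and 3. Whether reads were present at GAE5 below the threshold of the lists cannot be read from them. Among the other genes the closest peak outside the window, after that of GAE4, was one with a score of 31.8 in replicate 2, 2347 bp from GAE1.

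**Figure D2:**
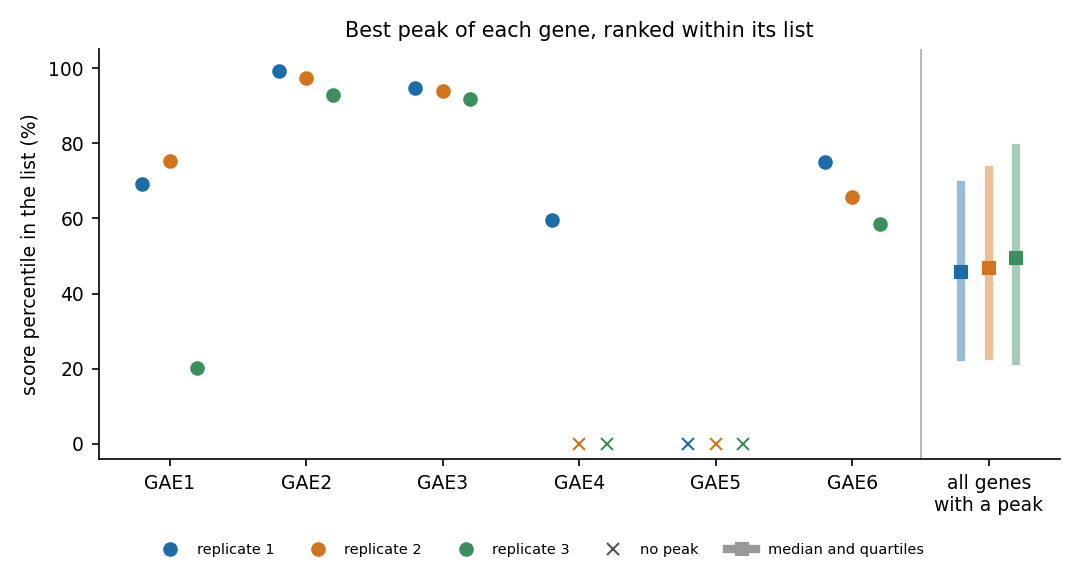
Score percentile of the best peak of each GAE gene within its list (vertical axis, %), by replicate, with crosses for no peak; at the right, squares and bars give the median and quartiles over all protein-coding genes with a peak in that list. GAE2 and GAE3 lie between 91.7 and 99.2 in all 3 lists, and the GAE1 point of replicate 3 stands at 20.2.

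Within a list, the order of the family was GAE2, GAE3, GAE6, GAE1 in replicates 1 and 3, and GAE2, GAE3, GAE1, GAE6 in replicate 2. The percentiles of GAE2 and GAE3 overlapped, from 92.7 to 99.2 for GAE2 and from 91.7 to 94.7 for GAE3. Those of GAE6 and GAE1 overlapped as well, from 58.5 to 75.0 and from 20.2 to 75.4, so the ranges over lists did not separate these neighbours in the order. Within each list GAE2 stood above GAE3, whereas GAE6 stood above GAE1 in replicates 1 and 3 and below it in replicate 2. The ranges of the lower pair and of the upper pair did not overlap. Over all protein-coding genes with a peak, the median percentile of the best peak was 45.7, 46.8 and 49.4 in replicates 1, 2 and 3. The GAE1 peak of replicate 3 was the only peak of the family below the median of its list. Among the 1671 genes with a peak of each list, the median of the mean percentile was higher, at 76.5. The means of GAE2 (96.4) and GAE3 (93.5) lay above it, and those of GAE6 (66.4) and GAE1 (54.9) lay below it.

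**Figure D3:**
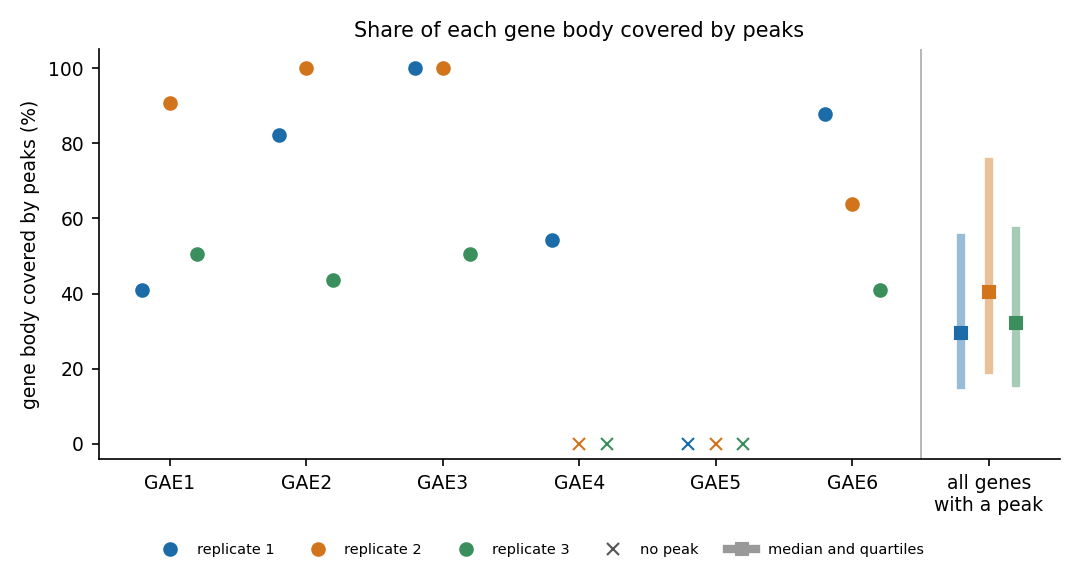
Share of each GAE gene body covered by peaks (vertical axis, %), by replicate, with crosses for no peak; at the right, squares and bars give the median and quartiles over all protein-coding genes with a peak on the body in that list. The replicate 3 values of the 4 genes with 3 peaks lie between 40.9% and 50.6%.

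The extent of the peaks on the bodies differed between lists at each of the 4 genes. Mean coverage was 75.2% ± 28.9 at GAE2, 83.5% ± 28.5 at GAE3, 64.2% ± 23.4 at GAE6 and 60.7% ± 26.4 at GAE1 (SD, n = 3 each), and these ranges overlapped. The replicate 2 peak was the widest at GAE1, GAE2 and GAE3, and the replicate 1 peak was the widest at GAE6. The replicate 3 peak was the narrowest at GAE2, GAE3 and GAE6. Over all 1780 regions with peaks of 3 lists, the replicate 2 peak was the longest in 57.8% and the replicate 3 peak the shortest in 59.9%, so this order of widths was common in the lists as a whole. Over all genes with a peak on the body, the median share covered was 29.5%, 40.3% and 32.2% in replicates 1, 2 and 3, and the upper quartile was 54.7%, 75.0% and 56.6%. The coverage of GAE2 and GAE3 was above the upper quartile in replicates 1 and 2 and below it in replicate 3. That of GAE1 was above it in replicate 2 alone (90.7%), and that of GAE6 in replicate 1 alone (87.7%).

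The shared stretches did not sit at 1 place along the genes. Their midpoints lay at 37.1% of the body in GAE2 and 32.3% in GAE6, and at 76.5% in GAE3 and 64.7% in GAE1, counted from the lower coordinate. At GAE1, GAE2 and GAE6 the stretch was wholly on the body, and at GAE3 93.4% of it was. Each made up between 39.1% and 50.6% of the body's length. How reads that match more than 1 place were handled is not given in the sources used here, and exchange of reads between these related genes was not tested.

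Other genes of pectin precursor and pectin synthesis were examined as a list of 50, assembled by function. Peaks were found at 5, 10 and 4 of them in replicates 1, 2 and 3 (10%, 20% and 8%), against 20.8%, 17.1% and 11.7% of all protein-coding genes, and 37 (74%) had none in any list, against 68.3% of all genes. Regions of all 3 lists on the gene or within 1000 bp were found at 3 (6.0%), close to the 6.68% of all protein-coding genes. None of the 50 had body peaks in all 3 lists, against 3.75% of all genes. None of these differences was tested, here or for the groups of the list that follow, and none is read as a property of them.

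Of the 10 genes that supply UDP-glucuronic acid, 8 (80%) had no peak in any list, near the 68.3% of all genes without one. The UDP-glucose dehydrogenase genes UGD1, UGD2, UGD3 and UDG4 had none. Of 6 genes of the myo-inositol route, which oxidises myo-inositol to glucuronic acid and activates it, MIOX2 (an oxygenase gene) had a score of 34.32 in replicate 3 alone and USP (a pyrophosphorylase gene) one of 21.22 in replicate 2 alone. Among 8 genes for enzymes that decarboxylate UDP-glucuronic acid, 3 (37.5%) had a peak, all in replicate 2 alone. Of all genes, 19.7% had a peak in exactly 1 list. The highest score of the 8 was that of the UDP-xylose synthase gene UXS4 with 41.17. None of these 18 genes held a region of all 3 lists, against 6.68% of all genes.

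Of the 10 genes for other nucleotide sugars, 8 (80%) likewise had no peak in any list, near the share over all genes. Of 4 genes of UDP-rhamnose synthesis, RHM1 had a score of 32.16 in replicate 1 alone. Of 6 genes for epimerases that make UDP-galactose or UDP-arabinose, UGE1 had 21.9 in replicate 2 alone. A last group of 7 pectin assembly genes, among them QUA2 and QUA3, had no peak in any list, like 68.3% of all genes.

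The galacturonosyltransferase genes, whose products use UDP-galacturonic acid or resemble such enzymes, held the 3 regions of the list. They numbered 15, with peaks at 4, 5 and 3 genes in replicates 1, 2 and 3 (26.7%, 33.3% and 20%), against 20.8%, 17.1% and 11.7% of all genes, and the 3 regions were at 20% of them, against 6.68% of all genes. GAUT12, which acts in the synthesis of secondary walls, had scores of 671.89, 735.05 and 437.6, but the region (chromosome 5, 22222002 to 22226153) lay 33 bp outside the gene and on AT5G54700. GAUT3 had 201.46, 43.47 and 660.59, and its region spanned 17936880 to 17938553 of chromosome 4, of which 182 bp reached the gene, in 1 list. GAUT5 had 159.94, 540.68 and 20.86, and its region spanned 13016443 to 13020441 of chromosome 2, of which 86 bp reached the gene, also in 1 list. The scores of these 3 genes are those of the best peak on the gene or within 1000 bp. A region can also hold peaks farther away. With peaks of a score of at least 100 alone, GAUT5 still held a region of all 3 lists, whose replicate 3 peak lay beyond the 1000 bp. At GAE1, GAE2, GAE3 and GAE6 the peak of each list lay on the gene, whereas at these 3 genes the shared peaks lay mainly beside it. A peak of each list on the body was found at 3.75% of all genes. The GAE family was selected on peak positions in these lists, so nothing is read from this contrast. With peaks outside these regions counted too, body peaks were found in 2 lists at GAUT5 and in 1 list at GAUT3 and at GAUT12. Among the galacturonosyltransferase genes without a region, GAUT15 had the highest mean percentile, from a score of 42.96 in replicate 2 alone. GAUT1, which encodes a catalytic subunit for the pectin backbone, had no peak.

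**Figure D4:**
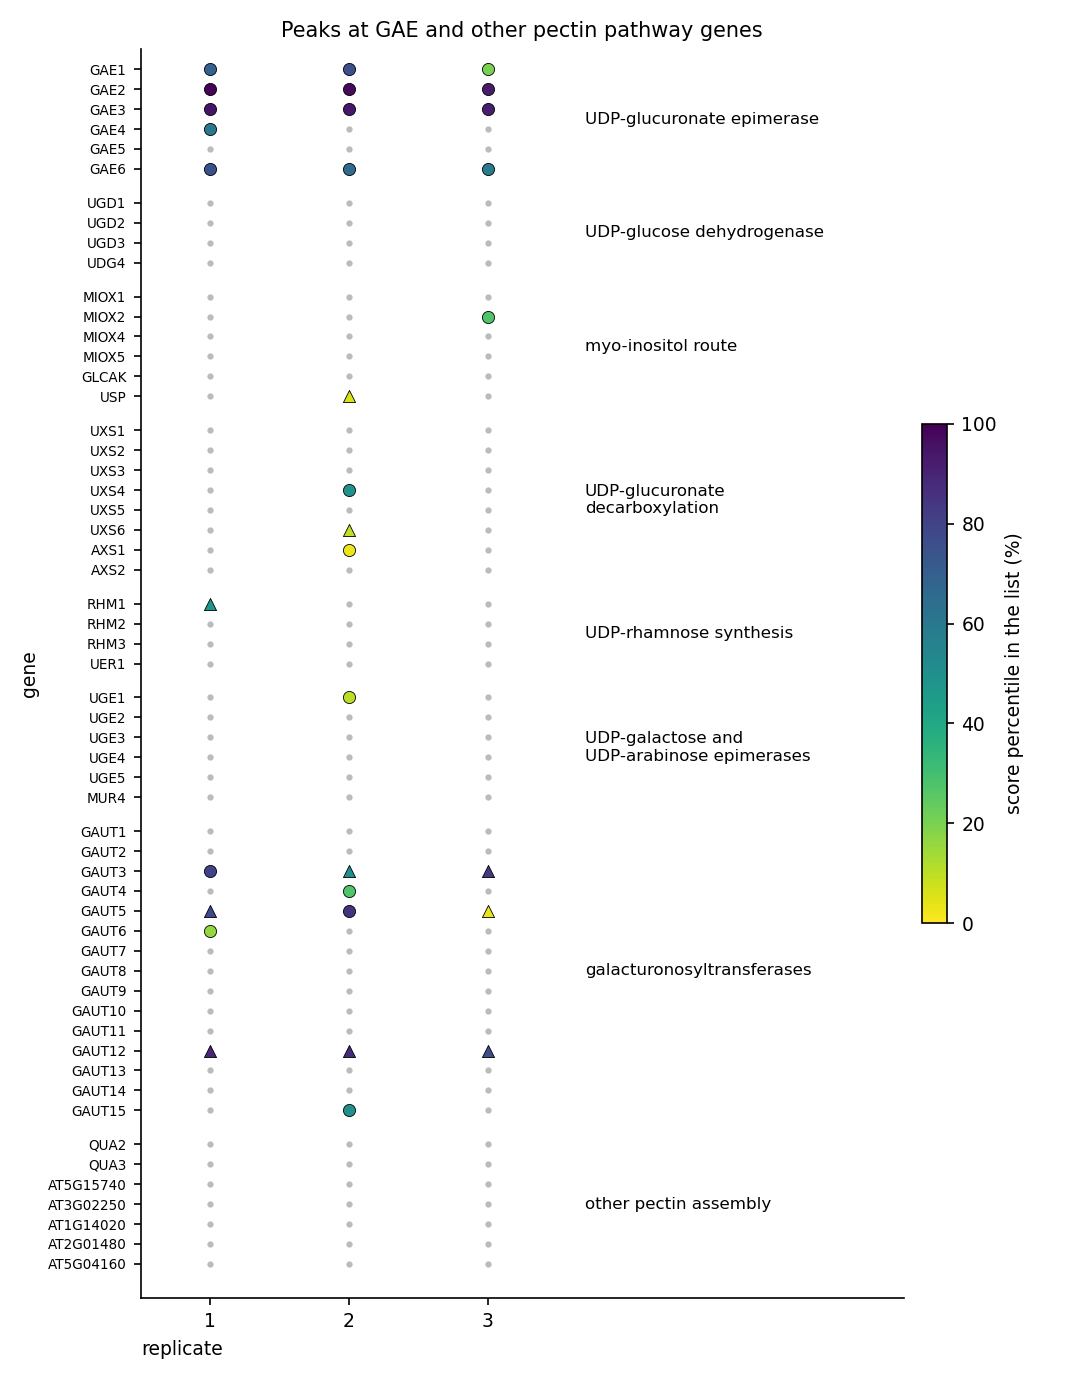
Peaks at the GAE genes and at 50 other genes of pectin synthesis (rows, by functional group) in replicates 1, 2 and 3 (columns). Colour gives the score percentile of the best peak in its list (%), circles mark best peaks on the gene body, triangles those off it, and small grey dots no peak. The GAE rows hold circles in all 3 columns for 4 genes; no other gene does.

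The genes whose score percentiles over the 3 lists lay nearest to those of each GAE gene were sought among the 1671 genes with a peak of each list. Nearest to GAE2 were AT1G35420 (scores of 2896, 3077 and 1187) and the adjacent genes FAF1, a regulator of shoot meristem size, and AT4G02820, which share scores of 2986, 2920 and 1148. Nearest to GAE3 were AT5G28442 (1502, 1557 and 1073) and the neighbours AT1G72070 and AT1G72080 (1561, 1859 and 1110). GAE6 was nearest to SETH6 (127, 80.5 and 153), MEF18 and VPS60.2. GAE1 was nearest to AT1G26920 and AT1G26921, which share scores of 102, 148 and 28.8, and to AT1G72430. The distances were 0.74 to 1.23 percentile points for GAE2 and GAE3 and 2.10 to 5.15 for GAE6 and GAE1. Of the pectin list only GAUT3, GAUT5 and GAUT12 had a peak of each list and could be chosen. None of them was among the nearest genes, and nothing is read from this.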

How the data were processed

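Reads were processed by the authors with Bowtie2 2.2.8, SAMtools 1.3 and MACS 1.4 on TAIR10, per the submitters' processing notes. Neither the use of the input nor the calling threshold is given in the sources used here. The lowest nuclear scores in the lists were 20, 20 and 20.01 in replicates 1, 2 and 3. Peaks were called per sample, and each deposited list gives a score per peak. Lists were read with Python 3.11.15, starts were counted from 1, and chloroplast and mitochondrial peaks were left out. Genes were placed with a RefSeq table (assembly TAIR10.1), with its nuclear coordinates treated as equal to TAIR10, and none of them is printed. All 6 GAE genes and all 50 other genes matched by locus tag. List peaks sharing at least 1 bp were merged into 7956 regions. The code was tested on simulated lists. No significance test was run. The members, lists and rules were chosen with earlier results of these data known. The text names the 6 GAE genes, the genes that share or adjoin their peaks, each pathway gene with a region of all 3 lists, in each pathway group the gene with the highest mean percentile among the rest, and the 3 genes nearest to each GAE gene with 3 peaks by Euclidean distance over the percentiles. UGD1 to UGD3, UDG4, USP, QUA2, QUA3 and GAUT1 were named in addition, for their roles. Alternatives were a score of at least 100, gene bodies alone, a 500 bp flank, regions in 2 or more lists, joining only peaks that share 50% of the shorter one, lists of equal length and leaving out each replicate.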

Additional observations from a re-analysis of the deposited data

How the results depend on the processing

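The number of GAE genes with a region of all 3 lists stayed at 4, and these were GAE1, GAE2, GAE3 and GAE6, with gene bodies alone, a 500 bp flank, regions in 2 or more lists, joining only peaks that share 50% of the shorter one, lists of equal length (3661 peaks) and without each replicate in turn, while the share of all protein-coding genes with such a region ranged from 4.7% (bodies alone) to 11.3% (2 or more lists), with 9.57% without replicate 3. With peaks of a score of at least 100 alone it was 2 (GAE2 and GAE3, where 3.9% of all protein-coding genes held one), since GAE1 was under that score in replicates 1 and 3 and GAE6 in replicate 2. The number of GAE genes with a peak was then 3 in each list, against 5, 4 and 4 before. These were GAE2, GAE3 and GAE6 in replicates 1 and 3, and GAE1, GAE2 and GAE3 in replicate 2. Of all nuclear peaks, 27.5%, 32% and 50.4% in replicates 1, 2 and 3 reached that score. The share of all genes with such a peak in each list was not computed. Regions at the other pathway genes numbered 3, or 2 with that score (GAUT5 and GAUT12) and with gene bodies alone (GAUT3 and GAUT5). For the GAE genes, no setting other than the score could change the count of 4. All GAE peaks overlapped bodies and those of the 4 genes shared a stretch, while GAE4 had a peak in 1 list and GAE5 in none. All GAE peaks ranked within the 3661 kept in lists of equal length. The shared stretch was 741 bp of the shortest peak of 777 bp at GAE1, and the whole shortest peak at GAE2, GAE3 and GAE6. No paired analysis was possible because the input samples have no peak list to pair with the ChIP lists. The lists carry no depth, so a missing peak at GAE4 or GAE5 sets no limit on binding there.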
